A study of Rattus norvegicus with 36 samples.

Results

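The first postnatal week of rat leg muscle was described from 3 arrays of leg muscle at postnatal day 7 and 3 arrays at postnatal day 0, chosen by their titles, out of 36 arrays in all. The leg sample was gastrocnemius with soleus, a large calf muscle of mostly fast fibres and a postural calf muscle of mostly slow ones. Total RNA was hybridised to Affymetrix RG-U34A arrays. The other 30 arrays were the leg at 4 later ages and the muscles that move the eye (EOM, extraocular muscle) at the same 6 ages. The labels give rat as the species and no strain, sex, genotype or treatment, and the day 0 and day 7 groups differ in age alone as far as the labels say. Nothing in them ties the 3 replicates of an age to different animals, and each p-value therefore reflects the spread among these arrays, which may be partly technical.

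At birth, rat limb muscle still carries developmental forms of its contractile proteins. Embryonic myosin heavy chain (Myh3) and perinatal myosin heavy chain (Myh8) are later replaced in fast fibres by Myh2, Myh1 and Myh4, which encode adult fast heavy chains, while slow fibres carry Myh7. At the neuromuscular junction the acetylcholine receptor exchanges its gamma subunit (Chrng) for the epsilon subunit (Chrne). Postnatal muscle also builds up its calcium buffering, its glucose uptake and its mitochondria.

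The promoter sequences of the 2 myosin genes and the 2 receptor subunit genes on which the results turn are shown first, because the members of each pair either rose together or moved in opposite directions. Each runs 5′ to 3′ over the 250 bases before the transcription start, from RefSeq on the GRCr8 assembly. Capitals mark matches to the motifs searched on both strands, which were the E-box CANNTG, its form CAGCTG, the CArG box and the MEF2 site. The CAGCTG matches are a subset of the CANNTG matches.
Myh4, chr10:52421898-52422147, plus strand: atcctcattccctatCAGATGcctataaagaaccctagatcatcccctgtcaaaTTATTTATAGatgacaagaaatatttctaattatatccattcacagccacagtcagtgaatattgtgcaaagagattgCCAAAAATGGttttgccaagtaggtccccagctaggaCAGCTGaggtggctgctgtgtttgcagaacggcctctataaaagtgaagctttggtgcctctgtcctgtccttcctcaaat
Myh2, chr10:52355489-52355738, plus strand: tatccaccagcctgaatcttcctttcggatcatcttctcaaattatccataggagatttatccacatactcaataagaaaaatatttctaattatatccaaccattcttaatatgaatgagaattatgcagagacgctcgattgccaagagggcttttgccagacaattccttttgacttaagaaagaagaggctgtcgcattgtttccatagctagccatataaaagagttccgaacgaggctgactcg
Chrng, chr9:95325734-95325983, plus strand: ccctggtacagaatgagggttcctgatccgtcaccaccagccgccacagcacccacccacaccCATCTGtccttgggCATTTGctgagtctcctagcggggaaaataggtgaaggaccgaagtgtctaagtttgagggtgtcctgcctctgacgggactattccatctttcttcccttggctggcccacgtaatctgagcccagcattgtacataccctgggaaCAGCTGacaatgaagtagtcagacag
Chrne, chr10:55834155-55834404, minus strand: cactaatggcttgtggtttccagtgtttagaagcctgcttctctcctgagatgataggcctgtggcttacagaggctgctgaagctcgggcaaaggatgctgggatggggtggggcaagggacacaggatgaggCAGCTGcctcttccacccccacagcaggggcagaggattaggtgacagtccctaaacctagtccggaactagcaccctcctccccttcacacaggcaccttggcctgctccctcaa
The Myh4 window held E-boxes that began 235 and 81 bases before the start, the second of them CAGCTG, with a MEF2 site at 196 bases and a CArG box at 118 bases. The Myh2 window held none of these letters. The Chrng window held E-boxes at 187, 173 and 26 bases, the last of them CAGCTG, and the Chrne window held a single CAGCTG at 116 bases. Of 33465 rat promoter windows of the same length, 65.5% held a CANNTG, 11.97% a CAGCTG, 1.497% a CArG box and 2.96% a MEF2 site. A match describes the letters only. Of the 34 genes looked up, 28 had a promoter entry.

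The deposited values are intensities on a linear scale, scaled so that array averages agree. The medians of the 6 arrays lay between 487.3 and 581.9, and 19.4% to 22.0% of the values on an array lay at or under an intensity of 100, which was used as a floor (6.64 on the log2 scale). Across probe sets, the day 0 arrays correlated with each other at 0.924 to 0.942 and the day 7 arrays at 0.938 to 0.953. As a check of the tissue, the fast light chain Myl1 read 14.33 to 14.67 on all 6. Some abundant transcripts read very low on 1 or more of the 6 arrays. Among 1164 probe sets above 12 on the log2 scale on at least 1 day 0 array, 21 read 3 or more log2 units lower on replicate 2 than on the highest array, 8 on replicate 3 and 0 on replicate 1. At day 7 the counts were 4, 4 and 2 of 1160 for replicates 1, 2 and 3. Such counts cannot tell a low reading on 1 array from a high reading on another, since they start from the highest array. Actc1, which encodes cardiac actin, the actin of fetal muscle, read an intensity of 14146.8 on day 0 replicate 1 but 0.1 on the other two. Ckm, muscle creatine kinase, read 3986.8 on day 0 replicate 1 and 0.2 or less on replicates 2 and 3 and on replicates 1 and 2 at day 7. The leading probe sets of Acta1 and Igf2 read nearly the same intensity on day 0 replicate 2 and on the 3 day 7 arrays, for example 696.4 and 697.1 on day 7 replicate 1, but 1386.4 and 3893.7 on day 0 replicate 1. No level or difference is taken from these 4 probe sets, though they stay in the counts of their lists, and the cause of the low readings was not tested.

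Across the leg samples, 54 of 6672 probe sets tested differed between day 7 and day 0 (0.809%; limma, Benjamini-Hochberg adjusted p under 0.05). Of these, 41 were higher at day 7 (0.615%) and 13 were lower (0.195%). Without the brightest 5% of probe sets the split was 16 higher and 13 lower. Over all tested probe sets, called or not, 377 had all day 7 arrays above all day 0 arrays and 594 had them below. In 52 of the 54 the 6 arrays did not overlap, and the exceptions were the keratins Krt1 and Krt10. At least 2-fold differences were seen for 34 of the rises and 10 of the falls. Taking for each gene its brightest probe set, 32 of 3889 genes passed (0.823%), of which 24 rose (0.617%) and 8 fell (0.206%). The median log2 difference of all tested genes was -0.05. The difference was above 0 for 1666 of the 3889 genes and below 0 for 2221, the background for the counts of list members given below. An unadjusted limma p under 0.05 was seen for 470 of the 6672 probe sets, the background for such counts in the lists.

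The variance behind these tests was pooled over all 12 groups of the series. From the 6 arrays alone, 19 probe sets passed and 17 of them were among the 54. These included Pvalb, Mybpc2, Myh4, Myh2, Gpt, Cpa1, Aqp4, Hspb6, Chrng and Tpsab1, and no other gene named from the largest changes. With 1 array left out at a time, the count was lowest without day 7 replicate 2, at 32. In simulated data for this comparison, 40% of 2-fold and 88% of 4-fold changes were recovered, so differences of about 2-fold can be missed. The changes were placed only in probe sets of middle brightness, dimmer than those of Pvalb, Mybpc2, Myh4 and Myh2, with independent normal noise. Recovery in brighter probe sets, or with the very low readings described above, was not tested.

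By the brightest probe set of each gene, the largest rises were in genes of adult fast fibres. Of 17 fast fibre genes tested, 5 rose and 0 fell. The median log2 difference of the list was 0.22, and it was 0.08 without day 0 replicate 2 and 0.39 without day 0 replicate 1. The 5 were Pvalb, Mybpc2, Myh4, Myh2 and Rpl3l, and they rose in each fit with 1 array left out. The other 12, which include the fast troponins and the fast light chain Myl1, did not pass.

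Pvalb encodes parvalbumin, the calcium-binding protein that speeds relaxation of fast fibres. Its log2 intensity was 8.78, 8.74 and 8.92 on the day 0 arrays and 12.60, 12.66 and 12.21 on the day 7 arrays. Every day 7 array lay far above every day 0 array. The log2 difference was 3.67 ± 0.33 (SE, n = 3 arrays per group; limma adjusted p = 1.02e-08), a 12.8-fold rise. Mybpc2, the fast form of myosin-binding protein C in the thick filament, read 8.28, 9.53 and 8.93 at day 0 and 12.69, 12.47 and 12.44 at day 7. The day 0 arrays were more spread than the day 7 arrays, with a wide gap between the groups. Mybpc2 rose by 3.62 ± 0.33 log2 units (limma adjusted p = 1.24e-08), or 12.3-fold.

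Myh4, the myosin heavy chain of the fastest fibres, read 9.46, 10.31 and 10.67 at day 0 and 13.50, 13.54 and 13.74 at day 7. The day 7 arrays were close together and all above the day 0 arrays, of which replicate 1 was lowest. The log2 difference was 3.45 ± 0.37 (limma adjusted p = 3.83e-07). Myh2, the heavy chain of fast oxidative fibres, read 8.84, 9.82 and 9.40 at day 0 and 12.81, 12.38 and 12.37 at day 7. Its groups did not overlap, and replicate 1 was again lowest at day 0. Myh2 rose by 3.17 ± 0.27 log2 units (limma adjusted p = 5e-09). Their later levels were higher, with means of 14.49 for Myh4 and 14.80 for Myh2 at day 14, and day 45 means of 14.69 and 14.71. The third adult fast heavy chain, Myh1, did not pass, with 10.70, 11.16 and 10.22 at day 0 and 10.09, 10.38 and 10.09 at day 7. The heavy chain genes are close paralogs, and signal shared between their probe sets was not tested.

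**Figure D1:**
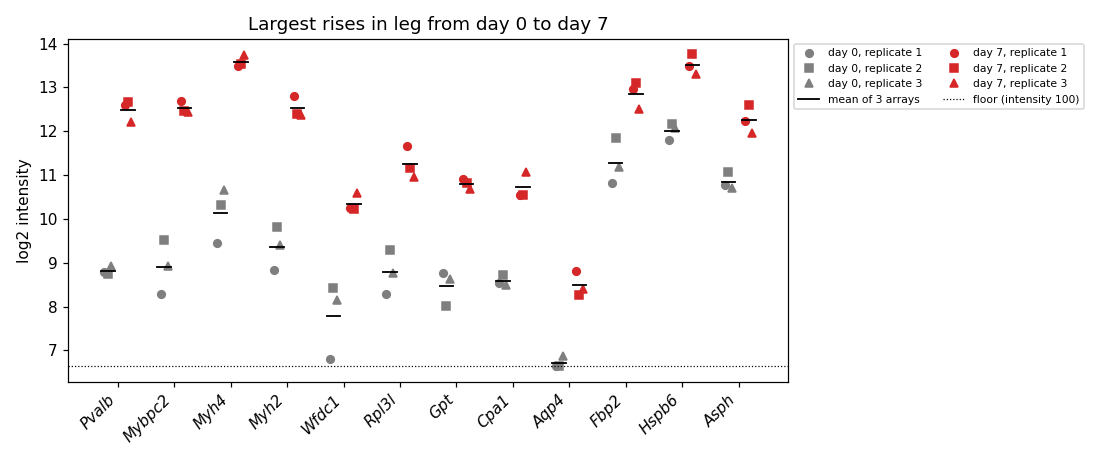
Log2 intensity (vertical axis) of the 12 genes with the largest rises in leg muscle (horizontal axis), for the 3 arrays of day 0 (grey) and day 7 (red). Short lines are group means and the dotted line is the floor. Each gene is shown by its brightest probe set. For each gene all 3 day 7 arrays lie above all 3 day 0 arrays, and Pvalb, Mybpc2, Myh4 and Myh2 show the widest gaps.

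Rpl3l, a muscle form of ribosomal protein Rpl3, also rose. It read 8.29, 9.30 and 8.76 at day 0 and 11.66, 11.17 and 10.96 at day 7, and both of its probe sets passed. The difference was 2.48 ± 0.35 on the log2 scale for the brighter probe set (limma adjusted p = 4.83e-05). Rpl3, the general form, read 14.63, 12.58 and 14.00 at day 0 and 14.15, 14.09 and 14.18 at day 7 and did not pass. Among 41 ribosomal protein genes tested Rpl3l was the only one called, and without day 0 replicate 1 there were 2 rises.

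The developmental sarcomere genes gave no call in the same week. Of 11 developmental isoforms of the sarcomere and the acetylcholine receptor tested, 0 rose and 1 fell, which was the receptor subunit Chrng. The brightest Myh3 probe set read 14.58, 12.68 and 13.53 at day 0 and 14.03, 14.13 and 14.27 at day 7, with overlapping groups. Its log2 difference was 0.54 ± 0.39 (limma adjusted p = 0.933), and -0.13 to 1.04 over the alternatives run. Other tested Myh3 probe sets pointed the other way, at -0.09, -0.58, -0.38 and -0.14, and did not pass. The direction for Myh3 is therefore not settled. Myh8 read 14.14, 14.48 and 14.39 at day 0 and 14.74, 14.58 and 14.75 at day 7. All 3 of its day 7 arrays were the higher, but the difference of 0.35 ± 0.29 did not pass (limma adjusted p = 0.987). In leg, the mean of Myh8 was 13.38 at day 14, 11.10 at day 21, 8.54 at day 28 and 7.15 at day 45. Myh7, the slow heavy chain, differed by 0.19 ± 0.21, and Myh13, a heavy chain best known from eye muscle, by 0.39 ± 0.60; neither passed. The brightest probe sets of these genes lie near the top of the scale, except that of Myh13, and whether differences are compressed there was not tested.

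Myl4, the light chain of embryonic muscle and atrium, was measured by 2 tested probe sets that pointed in different directions, with differences of 0.46 ± 0.33 and -1.01 ± 0.46, and neither passed. The brighter one read 14.53, 13.10 and 13.18 at day 0 and 13.93, 14.06 and 14.20 at day 7. The dimmer one read 13.74, 14.15 and 14.22 at day 0 and 12.80, 12.88 and 13.40 at day 7, without overlap. Tnnt2, a troponin T of fetal muscle, read 12.74, 13.09 and 12.88 at day 0 and 12.47, 12.44 and 12.55 at day 7. The 3 day 7 arrays were lower, but the difference of -0.42 ± 0.44 did not pass. The adult partners Myl1 and Tnni2 did not pass either, at 0.06 ± 0.19 and 0.15 ± 0.20. Of the slow fibre genes 1 of 11 rose, the regulatory light chain Myl2, by 0.77 ± 0.19 (limma adjusted p = 0.0436). Its arrays did not overlap, at 14.09, 13.74 and 13.55 against 14.62, 14.49 and 14.58. The Myl2 call was kept only when day 0 replicate 1 was the array left out, and the adjusted p reached 0.254 without one of the others. It was also lost with the mean of its probe sets (0.375).

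**Figure D2:**
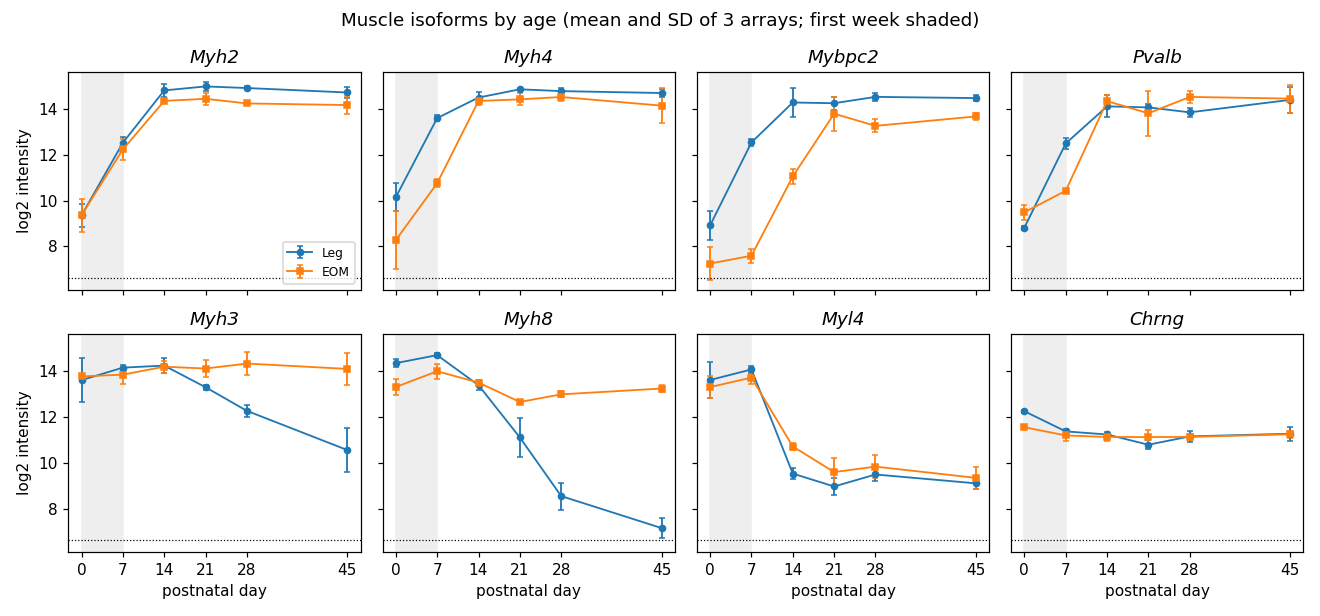
Mean log2 intensity (vertical axis) against postnatal day (horizontal axis) for 8 genes in leg (blue circles) and EOM (orange squares), with SD over 3 arrays as bars. The first week is shaded and the dotted line is the floor. Each gene is shown by its brightest probe set only. Myh2, Myh4, Mybpc2 and Pvalb climb in leg during the shaded week, while Myh3, Myh8 and Myl4 are still near their day 0 levels at day 7.

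The receptor subunits of the neuromuscular junction moved in opposite directions. Chrng, the fetal gamma subunit, read 12.16, 12.27 and 12.29 at day 0 and 11.44, 11.28 and 11.37 at day 7. The arrays within each age were tightly grouped and the ages did not overlap. Chrng fell by 0.88 ± 0.17 log2 units (limma adjusted p = 0.00475), a call kept with any 1 array left out but not without day 0 replicate 2 and day 7 replicate 3 together (0.0717). Its leg mean stayed near the day 7 level later, at 11.23, 10.78, 11.14 and 11.26 on days 14, 21, 28 and 45. How much of that level is Chrng message was not tested, so 0.88 may not be the full size of its fall. Chrne, the adult epsilon subunit, read 8.96, 8.59 and 9.77 at day 0 and 10.17, 10.42 and 10.13 at day 7. Here the day 0 arrays were spread, and replicate 3 came near the day 7 values without reaching them. Chrne rose by 1.13 ± 0.24 log2 units (limma adjusted p = 0.0105). That call was lost without day 0 replicate 1, day 0 replicate 2 or day 7 replicate 2, with an adjusted p of up to 0.158, and with the leg arrays alone (0.0863).

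Of 15 junction genes tested, these were the only ones called, with 1 rise and 1 fall. Without day 7 replicate 3 there were 2 rises and 1 fall, and without day 0 replicate 2 as well there were 0 calls. The subunits that both receptor forms share, Chrna1, Chrnb1 and Chrnd, differed by 0.05, 0.10 and -0.03 on the log2 scale. Ncam1, an adhesion molecule of developing and denervated fibres, read 11.33, 10.65 and 11.05 at day 0 and 9.19, 9.78 and 7.56 at day 7. Its groups did not overlap, but its difference of -2.17 ± 0.66 did not pass (limma adjusted p = 0.154). A dimmer tested probe set of Ncam1 differed by -0.51 and did not pass. Of 13 myogenic regulators, 0 passed with limma and 1 had an unadjusted p under 0.05.

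Glucose handling genes gave 2 rises among 25 tested and 0 falls, with 0 rises without day 0 replicate 1 and 3 without day 7 replicate 3. Fbp2, the muscle fructose bisphosphatase, read 10.82, 11.84 and 11.19 at day 0 and 12.96, 13.09 and 12.51 at day 7. The ages did not overlap, and the log2 difference was 1.58 ± 0.35 (limma adjusted p = 0.0145). Slc2a4, the insulin-responsive glucose transporter, read 10.76, 10.98 and 11.03 at day 0 and 11.96, 11.91 and 11.79 at day 7. It rose by 0.96 ± 0.20 (limma adjusted p = 0.00678), and its second probe set also passed. The Fbp2 call was lost without day 0 replicate 1 or 3 or day 7 replicate 1 or 2 (adjusted p up to 0.135) or with the mean of its probe sets (0.0619), and the Slc2a4 call without day 0 replicate 1 (0.0567). Most enzymes of the pathway itself did not pass, among them Pfkm at -0.16, Pgk1 at 0.09, Pygm at 0.17 and Eno3 at 0.29.

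Hk2, the insulin-regulated hexokinase of muscle, was measured by 2 probe sets that disagreed. The dimmer one read 6.64, 6.64 and 8.32 at day 0 and 10.09, 9.82 and 10.04 at day 7, and passed with a difference of 2.78 ± 0.36 (limma adjusted p = 9.01e-06). The 2 lowest readings were at the floor, so the size of this difference depends on the floor, and it ranged from 2.50 to 3.34 with 1 array left out. The brighter probe set differed by 0.45 and did not pass. Alanine aminotransferase, Gpt, which links amino acids to pyruvate, is outside the list of glucose handling genes. Gpt read 8.77, 8.01 and 8.62 at day 0 and 10.92, 10.83 and 10.67 at day 7. Its groups were far apart, with a rise of 2.34 ± 0.39 (limma adjusted p = 0.000529).

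Of 32 genes of fatty acid uptake and oxidation, 2 rose and 0 fell, with 0 calls without day 7 replicate 2 and 1 rise and 1 fall without day 7 replicate 3. Pdk2, a kinase that restrains pyruvate dehydrogenase, read 11.32, 11.16 and 11.24 at day 0 and 12.53, 12.61 and 12.05 at day 7. It rose by 1.16 ± 0.23 (limma adjusted p = 0.00415), a call lost without day 7 replicate 2 (0.0506) and with the leg arrays alone (0.0589). Acadm, the medium-chain acyl-CoA dehydrogenase of mitochondria, read 11.11, 11.42 and 11.31 at day 0 and 12.15, 11.93 and 12.08 at day 7. Its groups did not overlap, and it rose by 0.77 ± 0.18 (limma adjusted p = 0.0311). The Acadm call was kept only without day 0 replicate 2, with adjusted p of up to 0.172 when another array was left out. It was also lost when arrays were scaled to the same median (0.119). In leg the Acadm mean then stood at 13.83 at day 14, against 12.05 at day 7.

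Genes of oxidative phosphorylation and the citrate cycle were measured as a list of mitochondrial energy genes. None of the 37 tested passed with limma, and 7 had an unadjusted p under 0.05. The log2 difference was above 0 for 31 of the 37, with a median of 0.29, against -0.05 for all tested genes. All 3 day 7 arrays lay above all 3 day 0 arrays for 9 of the 37, compared with 5.40% of all tested genes. The list median was 0.36 when arrays were scaled to the same median and 0.26 after quantile normalization. The upper end of the list held Atp5f1a, a subunit of the ATP synthase, at 0.61 ± 0.21, and Cox6c, a subunit of cytochrome oxidase, at 0.59 ± 0.24. Cox6c read 10.14, 10.15 and 10.84 at day 0 and 10.80, 10.87 and 11.25 at day 7, so its groups overlapped slightly. A dimmer probe set of Cox6c pointed the other way, at -0.24, and did not pass. A complex I subunit that is outside the list and was picked out after its values were seen, Ndufc1, rose by 0.66 ± 0.16 (limma adjusted p = 0.0422), a call lost with any 1 of the 6 arrays left out.

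Of 24 calcium handling genes, Pvalb rose, 0 fell, and 21 differences were above 0, with a median of 0.18. Without day 0 replicate 2 the rises numbered 2. Asph, a gene outside this list, has a locus that also encodes the junctional protein junctin of the sarcoplasmic reticulum. Asph read 10.77, 11.08 and 10.70 at day 0 and 12.23, 12.60 and 11.96 at day 7. It rose by 1.41 ± 0.20 (limma adjusted p = 6.07e-05). Hspb6, a small heat shock protein abundant in muscle, read 11.80, 12.16 and 12.06 at day 0 and 13.49, 13.75 and 13.30 at day 7. The ages were clearly separate for both genes, and the difference for Hspb6 was 1.51 ± 0.26 (limma adjusted p = 0.00103). Both Hspb6 probe sets rose, and it was the only one of 23 heat shock and chaperone genes to pass. Eef1a2, the elongation factor form of mature muscle and neurons, also singled out after its values were seen, rose by 1.17 ± 0.29 (limma adjusted p = 0.0422), a call lost with any 1 of the 6 arrays left out.

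The remaining large rises were in genes from no list. Wfdc1, a secreted protein with a protease inhibitor fold, read 6.81, 8.43 and 8.15 at day 0 and 10.24, 10.22 and 10.59 at day 7. Replicate 1 was well below the other two at day 0, and the difference was 2.55 ± 0.32 (limma adjusted p = 5.92e-06). Cpa1, carboxypeptidase A, best known as a pancreatic enzyme, read 8.54, 8.72 and 8.50 at day 0 and 10.55, 10.55 and 11.06 at day 7. Both ages were tight, and the rise was 2.13 ± 0.27 (limma adjusted p = 7.31e-06). Aqp4, the water channel of fast fibre membranes, read 6.64, 6.64 and 6.87 at day 0 and 8.80, 8.27 and 8.40 at day 7. As replicates 1 and 2 were at the floor at day 0, the fitted rise of 1.77 ± 0.34 (limma adjusted p = 0.00385) depends on the floor. With the floor at 200 the Aqp4 difference was 0.84 and did not pass (adjusted p = 0.325), nor did it without day 0 replicate 2 and day 7 replicate 3 together (0.0513).

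Among the falls, 3 genes outside the lists stood beside Chrng. Cdo1, cysteine dioxygenase, which starts the breakdown of cysteine towards taurine, read 12.59, 13.00 and 12.86 at day 0 and 10.94, 10.73 and 11.68 at day 7. Its groups did not overlap, although day 7 replicate 3 was the highest of its age. Cdo1 fell by 1.70 ± 0.21 log2 units (limma adjusted p = 5.92e-06). Crabp2, a carrier of retinoic acid, read 9.31, 9.17 and 9.42 at day 0 and 7.20, 7.09 and 8.37 at day 7, again with replicate 3 highest. It fell by 1.74 ± 0.37 (limma adjusted p = 0.0112), a call lost without day 0 replicate 3 or day 7 replicate 1 or 2 (adjusted p up to 0.121), and with the floor at 50 (0.146). Tmem259, a membrane protein, read 11.30, 11.59 and 11.49 at day 0 and 10.91, 10.32 and 10.58 at day 7. Tmem259 fell by 0.86 ± 0.15 (limma adjusted p = 0.00138), and its adjusted p without day 0 replicate 2 and day 7 replicate 3 together was 0.0518.

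Of 7 mast cell markers tested, 2 fell and 0 rose, and all 7 differences were below 0, with a median of -0.27, or -0.44 without day 0 replicate 3. Tpsab1, a tryptase stored in mast cell granules, read 11.60, 11.98 and 11.52 at day 0 and 9.88, 9.74 and 10.01 at day 7. The groups were tight and widely separated, and Tpsab1 fell by 1.82 ± 0.21 log2 units (limma adjusted p = 9.5e-07). Cma1, a chymase of the same granules, read 11.86, 12.31 and 11.69 at day 0 and 11.10, 11.10 and 11.15 at day 7. Cma1 fell by 0.84 ± 0.18 (limma adjusted p = 0.0105), a call lost without day 0 replicate 2 or day 7 replicate 1 or 2 (adjusted p up to 0.157). When arrays were scaled to the same median its adjusted p was 0.0501, and with the leg arrays alone 0.0575. The other 5 did not pass, from Cpa3 at -0.66 to Mcpt1l1 at -0.10. The summed intensity of the 7 markers was 20540 to 24654 on the day 0 arrays and 15491 to 17027 on the day 7 arrays. In these bulk samples, fewer cells of a type and less RNA per cell cannot be told apart.

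Epidermal keratins were the only called genes whose groups overlapped. Krt1, a keratin of differentiating epidermis, read 10.20, 10.72 and 11.42 at day 0 and 7.32, 7.67 and 10.41 at day 7. Krt10, its partner in the same layer, read 10.68, 11.04 and 11.82 at day 0 and 8.63, 8.22 and 10.98 at day 7. For both, day 7 replicate 3 lay in the day 0 range and the other two far below. Krt1 fell by 2.31 ± 0.56 (limma adjusted p = 0.0363) and Krt10 by 1.90 ± 0.42 (0.0145). The Krt1 call was lost without day 0 replicate 2 or 3 or day 7 replicate 1 or 2 (adjusted p up to 0.357), and the Krt10 call without day 0 replicate 3 or day 7 replicate 1 or 2 (up to 0.218). Without day 7 replicate 3 both calls were kept, and with the leg arrays alone both were lost (0.119 and 0.147). The 7 epidermal markers tested, of which 2 fell, summed to 15201 to 21741 at day 0 and to 11377, 11591 and 20441 at day 7, the last on replicate 3. No epidermal marker was at the floor on all 6 arrays. The part of epidermal RNA in other results was not tested.

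**Figure D3:**
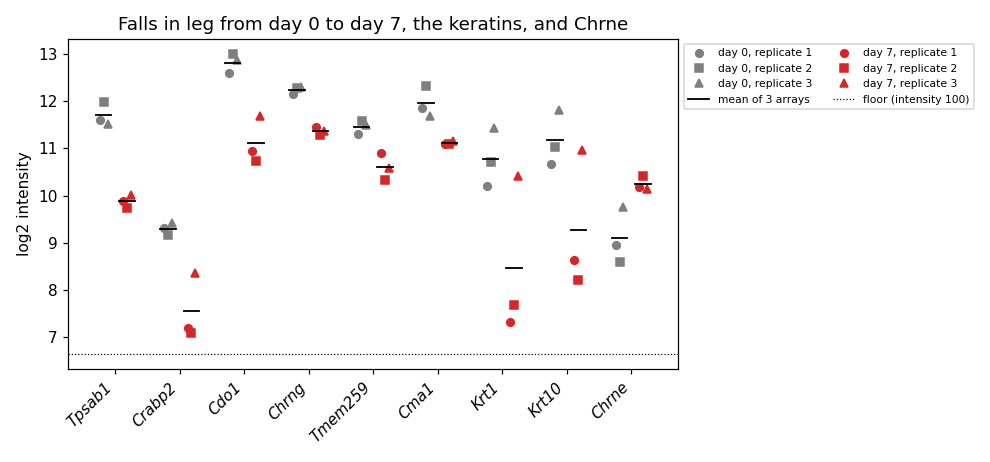
Log2 intensity (vertical axis) of the 6 genes that fell without overlap by their brightest probe set, of Krt1 and Krt10, and of Chrne, which rose (horizontal axis). Points are the 3 arrays of day 0 (grey) and day 7 (red), short lines are means and the dotted line is the floor. Day 7 replicate 3 (triangle) stands far above the other day 7 arrays for both keratins and Crabp2.

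Growth factor and cell cycle genes gave no call. None of 20 insulin-like and fetal growth genes passed with limma (2 at an unadjusted p under 0.05), and 13 were below 0, compared with 2221 of all 3889 tested genes. Their median was -0.23, and with 1 array left out it lay between -0.30 (without day 0 replicate 2) and -0.12 (without day 0 replicate 1). In 6 of the 20 all day 7 arrays were lower, compared with 8.92% of all tested genes. Igf2 is counted in its list by the probe set that was set aside above. Other tested Igf2 probe sets differed by 0.73, 0.16, -0.07 and -0.08 and did not pass, and for the first of them the ages did not overlap. Igf1, the growth factor that drives postnatal muscle growth, read 12.77, 13.53 and 12.34 at day 0 and 11.39, 12.27 and 11.12 at day 7. Its groups lay just apart, and its difference of -1.28 ± 0.35 missed the threshold (limma adjusted p = 0.097), which it passed without day 7 replicate 2 (0.0376). Of 32 cell cycle and DNA replication genes, 0 passed with limma and 1 had an unadjusted p under 0.05. Their median was -0.22, with 24 below 0 and 8 above, where 2221 of all 3889 tested genes were below 0. Among the 24 were the replication genes Mcm6 at -0.45, Mcm5 at -0.34 and Prim1 at -0.48, picked after their values were seen. Igfbp5, a binding protein for these growth factors that is abundant in muscle, differed by 0.98 without passing.

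Matrix genes gave 0 calls with limma among 39 tested, and 3 had an unadjusted p under 0.05. Col12a1, a collagen of tendon and fascia, read 11.72, 12.54 and 12.14 at day 0 and 11.53, 11.31 and 11.54 at day 7 and did not pass (-0.68 ± 0.26, limma adjusted p = 0.389), although all its day 7 arrays were lower. The 17 genes of the dystrophin complex and cytoskeleton gave 0 calls with limma and 2 at an unadjusted p under 0.05. Within that list Csrp3, a sensor of stretch at the Z-disc, read 13.68, 14.02 and 13.67 at day 0 and 13.04, 13.06 and 12.96 at day 7, a difference of -0.77 ± 0.23 that did not pass (limma adjusted p = 0.135). Of 27 proteasome genes 0 passed with limma, 1 had an unadjusted p under 0.05, and 21 were above 0, with a median of 0.18 (0.08 without day 0 replicate 1 and 0.11 without day 7 replicate 3). The 34 antioxidant genes, 25 immediate early genes and 13 thyroid and glucocorticoid hormone genes also gave 0 calls, with 0, 7 and 1 at an unadjusted p under 0.05.

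Markers of other cell types were followed as lists. Of 29 leukocyte markers, 0 passed with limma, 3 had an unadjusted p under 0.05, and 21 were below 0, with a median of -0.30. In 8 of them all day 7 arrays were lower, compared with 8.92% of all tested genes. The summed leukocyte intensity was 41503 to 51703 at day 0 and 35309 to 42941 at day 7, which overlap. All 5 neutrophil markers were above 0, with a median of 0.83, but none passed (0 at an unadjusted p under 0.05), and their sum was 4904 on day 7 replicate 3 against at most 1614 on each of the other 5 arrays. Without that array their median was -0.09.

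Erythroid markers summed to 18137 to 62189 at day 0 and 24786 to 50574 at day 7, which overlap. Among 19 Schwann cell and axon markers 0 passed with limma and 5 had an unadjusted p under 0.05. Mbp, a protein of myelin, read 8.85, 9.13 and 9.23 at day 0 and 10.09, 10.84 and 11.55 at day 7, a difference of 1.76 ± 0.49 that did not pass (limma adjusted p = 0.103) although the groups did not overlap. Of 21 adipocyte markers 1 rose, Slc2a4, which muscle expresses itself. Simple epithelium, endothelium and smooth muscle, cartilage and bone, tendon, and liver and plasma protein markers gave 0 calls with limma among 8, 16, 13, 6 and 7 genes, with 1, 2, 0, 2 and 0 at an unadjusted p under 0.05. Cartilage and bone markers summed to 17264 to 23241 at day 0 and to 16569, 13302 and 29225 at day 7, the last on replicate 3. Their median was -0.06, and lay between -0.35 (without day 7 replicate 3) and 0.20 (without day 7 replicate 2) with 1 array left out. Myh11, the smooth muscle heavy chain, read 6.64, 9.48 and 8.21 at day 0 and 9.32, 9.40 and 9.51 at day 7 and passed only without day 0 replicate 2, alone or with day 7 replicate 3 (adjusted p = 0.0171 in the second case). A dimmer probe set of Myh11 differed by -0.26 and did not pass with all arrays. No marker of the 12 cell type lists was at the floor on all 6 arrays.

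**Figure D4:**
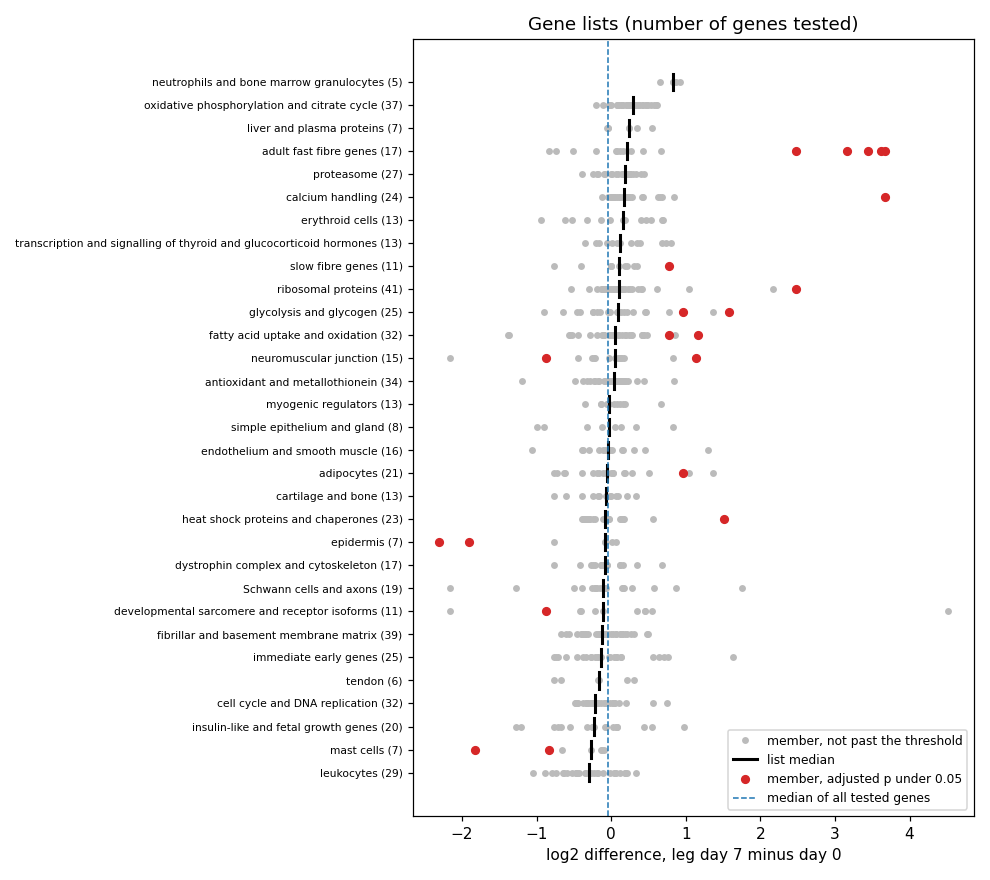
Log2 difference between day 7 and day 0 in leg (horizontal axis) for the tested genes of each of 31 lists (vertical axis, number of genes in brackets). Red points passed at an adjusted p under 0.05, black bars are list medians and the dashed line is the median of all tested genes, -0.05. The 5 fast fibre genes that rose stand apart from the other 12, which lie around 0.

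The same week in EOM was set against these changes. Of the 41 probe sets that rose in leg, 40 had a higher mean at day 7 than at day 0 in EOM, and so did 41.7% of all tested probe sets. All 13 that fell in leg had a lower EOM mean at day 7. The EOM means come from other arrays than the leg means. Tested directly, the first-week change differed between the muscles for 5 of 6672 probe sets (0.0749%; 265 at an unadjusted p under 0.05).

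Mybpc2 and Pvalb were among the 5. In EOM, Mybpc2 read 8.04, 7.08 and 6.64 at day 0 and 7.92, 7.55 and 7.31 at day 7, with the last day 0 array at the floor. The EOM ages overlapped, and the leg change exceeded the EOM change by 3.28 ± 0.47 (limma adjusted p = 0.000721). Pvalb in EOM read 9.28, 9.32 and 9.86 at day 0 and 10.37, 10.40 and 10.51 at day 7. It was higher at day 7 in EOM too, by a smaller step, and the difference between the changes was 2.74 ± 0.47 (limma adjusted p = 0.00397). For Myh2 and Myh4 the differences between the changes were 0.30 ± 0.39 and 0.97 ± 0.53 and did not pass. For Gpt and Wfdc1 they were 2.25 ± 0.55 and 1.78 ± 0.45, which did not pass either (limma adjusted p = 0.152 for both).

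The other 3 were Alx1, Fgfr2 and Ckmt2. Alx1, a homeobox gene of the developing face, and a probe set of Fgfr2, a fibroblast growth factor receptor, were at or near the floor on all 6 leg arrays, while their EOM means went from 11.12 to 8.38 and from 9.82 to 6.83. Both entered the test through the EOM arrays, and their leg change was set by the floor, so no size of a difference between the muscles is read from them. A probe set of Ckmt2 that is not its brightest, the mitochondrial creatine kinase of muscle, read 11.42, 12.07 and 11.34 at day 0 and 11.89, 11.73 and 11.95 at day 7 in leg, with overlap, while its EOM mean went from 9.69 to 11.43. The leg change was smaller than the EOM change by 1.49 ± 0.24 (difference -1.49; limma adjusted p = 0.0014).

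The first week was also compared with the second week in leg, from day 7 to day 14. The 2 changes share the day 7 arrays, so a high or low day 7 reading enters both. They differed for 7 of 6672 probe sets (0.105%; 339 at an unadjusted p under 0.05). Both Myl4 probe sets were among them: their day 7 means of 14.06 and 13.03 were followed by 9.52 and 8.22 at day 14. Tpsab1 had reached 9.88 at day 7 and stood at 9.78 at day 14, so its 2 weekly changes differed by -1.72 ± 0.36 (limma adjusted p = 0.0445). Prnp, the prion protein gene, did not pass in the first week, with a leg mean of 11.02 at day 0 and 10.69 at day 7, and stood at 12.15 at day 14. No adult fast fibre gene passed this test. Leg means at day 14 were already high on the scale, at 14.49 for Myh4, 14.10 for Pvalb, 14.27 for Mybpc2 and 14.80 for Myh2. Whether second-week differences are compressed there was not tested. The first-week rise exceeded the second-week rise by 2.55 ± 0.65 for Myh4 (limma adjusted p = 0.164), 2.06 ± 0.58 for Pvalb (0.307), 1.88 ± 0.58 for Mybpc2 (0.438) and 0.89 ± 0.47 for Myh2 (1). Of the 7 calls 2 were kept without day 0 replicate 1, 2 or 3 or day 7 replicate 2, and 1 was kept without day 7 replicate 1 or day 14 replicate 1 or 2.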

How the data were processed

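Total RNA was hybridised to 36 RG-U34A arrays, 3 for each of 2 muscles at 6 ages, per the labels. Each deposited value is a linear-scale intensity of 1 probe set on 1 array, with trimmed means of about 1501 to 1502 on the 6 leg arrays used. The summarising software was not given in the sources used here. From the deposited intensity values, log2 values were computed after a floor of 100. The 59 control probe sets were left out, as were 2068 that did not exceed an intensity of 320.4 (the 40th percentile) on at least 3 arrays, which left 6672 of 8799. The platform annotation, dated 2016, assigned a single symbol to 7006, more than 1 to 308 and no symbol to 1426. By gene identifier, 6985 of those with 1 symbol matched the gene table.

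Group means over 36 arrays were fitted with limma 3.58.1 in R 4.3.3 (trended prior, 24 residual and 5.84 prior degrees of freedom), with Benjamini-Hochberg adjustment over all 6672 and a threshold of 0.05. The fit was tested on simulated data with 200 changed probe sets, with 8 false calls. A gene is read from whichever of its probe sets was brightest on average over the 36 arrays. The genes named are up to 12 of the largest rises and falls without overlap, up to 4 called members of each of 31 lists (or 2 as values), fixed isoforms, and the largest differences from EOM and between weeks. Other genes were chosen after their values were seen. The groups compared, the lists and the tests were chosen with earlier results of these data known. Alternatives changed the floor, filter, scaling, prior, arrays fitted and replicate block, or left out each array. Figures used matplotlib 3.10.9 in python 3.11.15.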

Additional observations from a re-analysis of the deposited data

Results flagged for a closer look

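The first-week change differed between leg and EOM for 5 probe sets in a test of the difference itself. On the log2 scale, the leg change minus the EOM change was 3.28 for Mybpc2, 2.74 for Pvalb and -1.49 for a probe set of Ckmt2. The fitted values of 2.94 for a probe set of Fgfr2 and 2.75 for Alx1 come from the EOM arrays alone, since the leg arrays lay at or near the floor at both ages, and they are no measured difference between the muscles.

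The change over the first week in leg differed from that over the second week for 7 probe sets. The first-week change minus the second-week change was 4.999 and 3.80 for the 2 probe sets of Myl4, -1.72 for Tpsab1 and -1.80 for Prnp. It was 4.36, 3.56 and -2.39 for probe sets of Alox15, Gnb5 and Akr1c14 that are not the brightest of their genes. Gnb5, a G protein subunit, read 9.43, 7.84 and 9.58 at day 7, so replicate 2 was near the day 0 values of 7.12, 7.35 and 7.63. Akr1c14, a steroid dehydrogenase, read 6.64, 6.64 and 8.14 at day 7, with replicates 1 and 2 at the floor. Groups of 3 arrays were not tested for single outlying values.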

How the results depend on the processing

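Of 25 named genes that passed, all 25 kept their direction under every alternative run, and 8 passed in all of them (Pvalb, Mybpc2, Myh4, Myh2, Gpt, Cpa1, Hspb6 and Tpsab1). The leg count of 54 was 19 from the 6 arrays alone and 29 without the brightest 5% of probe sets, where all 29 calls still tested were kept. It ranged from 32 to 58 with 1 array left out, and was 38 without day 0 replicate 2 and day 7 replicate 3 together, an alternative chosen after seeing the data. Of the 54, 26 were kept in all 6 fits with 1 array left out. The medians of the lists, also recomputed without each array after seeing the data, stand beside them where they moved by over 1.5 times. Other alternatives gave counts within 1.5 times of 54. The median of all tested probe sets was -0.04 as deposited and 0.02 when arrays were scaled to the same median.

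The count of 5 differences between leg and EOM became 18 with a floor of 200, 13 without a filter, 11 with quantile normalization (6 higher in leg and 5 lower), 3 with a stricter filter and 2 without the brightest 5%, and ranged from 4 to 9 with 1 array left out. The highest of these was without EOM day 0 replicate 3, and 8 were called without leg day 0 replicate 3 or day 7 replicate 3. The count of 7 differences between the weeks became 2 with a floor of 50 or 200, with quantile normalization or with the 18 leg arrays alone. It was 3 without a trend in the prior, 0 when only the groups compared were fitted and 0 without the brightest 5%, and ranged from 1 to 6 with 1 array left out. The causes of these shifts were not tested.

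The replicate numbers are not stated to pair the samples. Deviations of same-numbered leg arrays of day 0 and day 7 correlated at 0.13, 0.07 and 0.12, and each array correlated best with its own number, a hint from the data and not the design. With the replicate number as a block, 70 probe sets passed, including all 54, and the counts were 13 for leg against EOM and 14 between the weeks. With 3 arrays per group, and intensities near the floor or the top of the scale, small changes can be missed.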

Other observations

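Some genes were called only by a probe set other than their brightest one. Alox15, a lipoxygenase best known from blood cells and airway, was the largest of them, at 6.79, 8.48 and 7.29 on the day 0 arrays and 11.07, 11.07 and 12.48 on the day 7 arrays. The ages did not overlap, and the difference was 4.02 ± 0.53 on the log2 scale (limma adjusted p = 9.87e-06). Its brighter probe set differed by 1.60 ± 0.42 and did not pass (limma adjusted p = 0.0684). Rln1, relaxin, a hormone of the insulin family, read 10.74, 10.89 and 11.28 at day 0 and 9.41, 9.31 and 9.51 at day 7. The groups were well apart, and Rln1 fell by 1.57 ± 0.30 (limma adjusted p = 0.00347). Egln3, an oxygen-sensing prolyl hydroxylase, fell by 1.68 ± 0.36 (limma adjusted p = 0.0105), a call lost without day 0 replicate 1 or day 7 replicate 2 (0.0567). The brightest probe sets of Rln1 and Egln3 did not pass.

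Fxyd1, phospholemman, a regulator of the sodium pump in muscle, read 11.32, 11.82 and 11.30 at day 0 and 12.51, 12.63 and 12.75 at day 7. Its arrays did not overlap, and it rose by 1.15 ± 0.18 (limma adjusted p = 0.000202). The brightest probe set of Fxyd1 did not pass. Mapt, the microtubule protein tau, rose by 2.08 ± 0.38 in 1 of its 3 tested probe sets (limma adjusted p = 0.00195), with a day 0 array at the floor, while the other two did not pass at 0.35 and 0.42. Gpx3, a secreted glutathione peroxidase, rose by 1.65 ± 0.34 in 1 of 2 tested probe sets (limma adjusted p = 0.00939), a call lost without day 0 replicate 1 or day 7 replicate 3 (up to 0.108). Among 10 called probe sets that are unnamed here or have several names, 7 rose and 3 fell. These genes were chosen after their values were seen.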
